A study of Mus musculus with 6 samples.

Results

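The transcripts described here are those of 9 genes: the FOS family (Fos, Fosb, Fosl1 and Fosl2) and the JUN family (Jun, Junb and Jund), whose proteins pair to form the transcription factor AP-1, together with Atf3 and Myc. They were chosen by symbol, and all 9 of 9 were found once each among the 16533 genes of the count tables. RNA came from inferior vena cavae tied off for 24 h, with the thrombus inside, a model of deep vein thrombosis (DVT). Control mice had the genotype Stingf/f, in which the gene for the DNA-sensing adaptor STING is flanked by loxP sites, and are called WT in the sample titles. Mice called mKO had the genotype Stingf/f Lyzm-Cre+/-, in which Cre recombinase made from the Lyz2 locus is directed to neutrophils, monocytes and macrophages. Both groups carried the floxed alleles and both were ligated; unligated veins were not analysed here. Each library was a pool of 3 thrombi with their vessels, and there were 3 pools per group. Age, sex and background strain were not given in the sources used here. As replicates are pools, p-values set the difference between genotypes against the spread between pools, not between single thrombi.

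FOS and JUN proteins are leucine zipper factors that bind DNA as pairs: JUN proteins can pair with each other or with FOS proteins, whereas FOS proteins need a JUN partner. Several of their genes, though not all, are switched on within minutes of growth factor, cytokine, mechanical or stress signals. This runs through MAP kinases and the serum response factor SRF, and most of these messages decay quickly. ATF3 is a related zipper protein induced by stress. MYC belongs to another family and binds DNA with its partner MAX at genes of ribosome production, polyamine synthesis and cell growth.

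Library totals ran from 158579864 to 180068483 counts, and the least abundant of the 9 genes, Fosb, still had at least 1626 counts in every library, so counting error was small beside the spread between pools. Levels are given as CPM, the count of a gene scaled to a common library size (TMM-scaled totals). Sting1, the targeted gene, stood at 25.1, 31.4 and 27.1 CPM in control libraries 1 to 3 and at 22.7, 21.4 and 28.7 CPM in mKO libraries 1 to 3, so its groups overlapped. That count covers the whole gene in every cell of the tissue and cannot show a deletion limited to myeloid cells. Lyz2, the locus that carries Cre, ranged from 1430 to 1885 CPM in control and from 643 to 1153 CPM in mKO. Library mKO 3 stood apart in 2 tissue markers, with the muscle gene Ckm at 37.6 CPM against at most 9.77 CPM elsewhere, and the sympathetic neuron gene Th at 0.152 CPM against at least 16.7 CPM elsewhere.

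By edgeR quasi-likelihood none of the 9 genes passed an adjusted p of 0.05, where 0% of the 16523 genes tested did. At an unadjusted p under 0.05 there were 3 of 9, Fos, Fosb and Myc, where the background was 11.9%. Limma voom called 0 of 9 (0% of all genes). DESeq2 called 1 of 9, Myc, where it called 2.8% of all genes in either direction, 1.47% as higher and 1.33% as lower. Groups did not overlap for 1 of 9, Myc again, against 18.2% of all genes in either direction and 9.39% as lower. The estimate was above 0 for 7 of 9 (all genes: 7576 of 16523) and below 0 for Fosl1 and Myc. The median over the 9 was 0.34 on the log2 scale, beside -0.03 over all genes tested; it was 0.16 without mKO library 2, 0.21 without control library 2 and 0.53 without control library 1, with 7 of 9 above 0 each time.

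To set the genes beside each other, CPM was divided by the exonic length of each gene in GENCODE release M21. On this scale of CPM per kb, Junb had the highest level in all 6 libraries, at 213.8 ± 48.9 in control and 255 ± 51.3 in mKO (SD, n = 3 each), and Jun was next in all 6, at 135 ± 38.8 and 190.1 ± 38.1. Jund (96.9 ± 17.3 and 114 ± 10.5) and Atf3 (90.2 ± 20.6 and 119 ± 32.2) came next, and their order switched in mKO libraries 2 and 3, so these neighbours did not differ beyond their spread. Fos followed at 57.4 ± 9.26 and 79.1 ± 14.4, and Fosl2 at 30.2 ± 7.72 and 38.3 ± 11.4, in the same places in all 6 libraries. Myc, at 13.7 ± 1.06 and 10.3 ± 0.352, and Fosl1, at 11.7 ± 1.62 and 9.84 ± 3.59, were close together, and Fosl1 was above Myc in mKO library 2. Fosb was the lowest in every library, at 1.74 ± 0.268 and 3.05 ± 1.09. Of the summed length-scaled level of the 7 FOS and JUN genes, Junb made up 39.0% in control and 37.0% in mKO, Jun 24.5% and 27.6%, and Fosb 0.337% and 0.446% (means of 3 libraries).

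**Figure D1:**
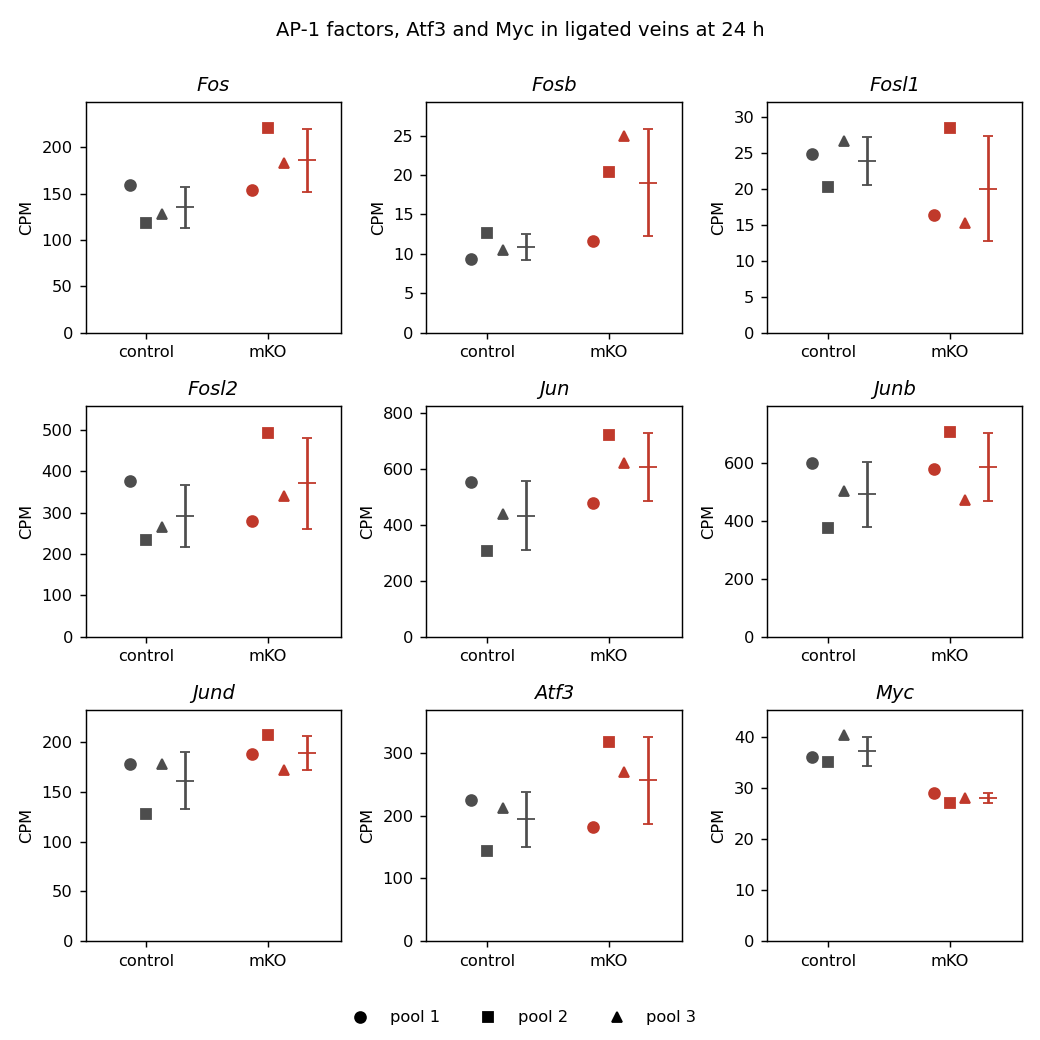
Level in CPM (vertical axes, starting at 0 and differing between panels) of each of the 9 genes in the 3 control and 3 mKO libraries; marker shape gives the pool number, and the horizontal tick with its bar gives the mean ± SD. Only for Myc do the mKO libraries (27.1 to 29.0 CPM) all lie below the control libraries (35.1 to 40.5 CPM).

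Start regions are shown for the 4 genes whose RefSeq window on GRCm38.p6 holds the core TGACG of the cAMP response element (CRE), the element that ATF, CREB and some AP-1 pairs bind; this core and the TATAAA box were added after the other motifs had been counted. Windows of 250 bases before to 50 bases after the start were found for 7 of the 9 genes, and none for Fosl1 and Myc. The 110 bases before the start are printed 5′ to 3′ on the gene's strand, and capitals mark the core on either strand and, in Fos, a TATAAA box. These 110 bases are chr12:85473780-85473889 (plus strand) for Fos, chr7:19310046-19310155 (minus) for Fosb, chr8:84978749-84978858 (minus) for Junb and chr1:191183334-191183443 (minus) for Atf3.
Fos: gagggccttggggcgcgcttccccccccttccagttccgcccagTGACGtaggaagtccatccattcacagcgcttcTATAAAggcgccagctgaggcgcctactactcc
Fosb: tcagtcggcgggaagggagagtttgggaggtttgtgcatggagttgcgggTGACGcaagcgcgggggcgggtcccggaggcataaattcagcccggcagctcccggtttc
Junb: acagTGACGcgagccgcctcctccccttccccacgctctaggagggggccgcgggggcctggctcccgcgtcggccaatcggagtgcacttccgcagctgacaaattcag
Atf3: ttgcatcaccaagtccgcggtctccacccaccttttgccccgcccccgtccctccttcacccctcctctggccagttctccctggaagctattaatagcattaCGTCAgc

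The core was in 4 of the 7 windows and in 20.8% of all 32851 windows. In Fos it lay at position -66 and again at -129, outside the printed stretch; in Fosb it lay at -60, in Junb at -106 and in Atf3 at -7, the first base of each match counted from the start. An NF-kB site was matched in Fos, Fosb and Fosl2, 3 of 7, against 9.31% of all windows. TATAAA was matched in 2 of 7, against 13.6% of all windows: in Fos at -33 and in Junb at 0, outside the printed stretch. The full CRE TGACGTCA (1.79% of all windows), the AP-1 element TGANTCA (7.81%), the MYC-binding E-box CACGTG (7.15%), the STAT site TTCNNNGAA (8.3%) and the CArG box of SRF (1.63%) were in 0 of 7. Both strands were searched, and the core is part of the full CRE. A match is a run of letters and not a measured binding site. Only these fixed patterns were counted, and bases outside the windows were not searched. An absence therefore does not show that a gene lacks such an element.

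Jun, the founding JUN protein and a partner of every FOS protein, had 551, 304 and 439 CPM in control libraries 1 to 3 and 478, 719 and 622 CPM in mKO libraries 1 to 3. Libraries mKO 2 and 3 were above all controls, but mKO 1 was below control 1, so the groups overlapped. On the log2 scale mKO over control was 0.49 (SE 0.25; 95% interval from -0.10 to 1.08), and the edgeR quasi-likelihood test gave an adjusted p of 0.479. The estimate was 0.29 without control library 2 and 0.71 without control library 1. An antisense gene, Junos, covers part of Jun in the annotation; it ranged from 9.1 to 16.2 CPM in control and from 17.8 to 20.4 CPM in mKO, and its part in the Jun count was not tested.

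Junb, which forms weaker activating pairs than JUN, had 599, 374 and 503 CPM in control and 580.1, 708 and 472 CPM in mKO. The lowest mKO library lay below 2 of the 3 controls. Its log2 fold change was 0.25 (SE 0.23, adjusted p 0.642 by edgeR quasi-likelihood), and it was 0.09 without control library 2, 0.10 without mKO library 2, 0.42 without control library 1 and 0.39 without mKO library 3. The annotation places Prdx2, an antioxidant enzyme abundant in red cells, across part of Junb on the other strand, and counts were made with a strand setting not given in the sources used here. For its own count, Prdx2 ranged from 68.6 to 76.1 CPM in control and from 86.6 to 129 CPM in mKO; its part in the Junb count was not tested.

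Jund, the JUN member that is usually present at a steady level in resting cells, had 178, 128 and 178 CPM in control and 188, 207 and 173 CPM in mKO. Controls 1 and 3 were inside the mKO range, and only control 2 was well below it. Its log2 fold change was 0.23 (SE 0.17, adjusted p 0.584 by edgeR quasi-likelihood), and 0.09 without control library 2. It was the smallest change in size of the 9 genes.

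Fos, the founding member of its family and an early responder to many stimuli, had 159.6, 118 and 128 CPM in control and 154, 221 and 183 CPM in mKO. The overlap came from 1 library on each side, since control 1 lay above mKO 1. Levels were 1.38-fold those of control, 0.46 on the log2 scale (SE 0.18), with edgeR quasi-likelihood p-values of 0.0377 before and 0.393 after adjustment. Permuting the libraries (exact two-sided test) gave p = 0.2.

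Fosb, an early gene whose protein can persist in a truncated form, had 9.38, 12.7 and 10.5 CPM in control and 11.7, 20.4 and 25.0 CPM in mKO. Libraries mKO 2 and 3 were well above every control, and mKO 1 fell between controls 2 and 3. This was the largest fold of the 9, at 0.81 on the log2 scale (SE 0.28), 1.75-fold, with a 95% interval from 0.16 to 1.46. Adjusted p-values were 0.356 (edgeR quasi-likelihood) and 0.0783 (DESeq2). Leaving out mKO 3 lowered the estimate to 0.56, and leaving out mKO 1 raised it to 1.07.

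Fosl1 encodes FRA-1, a later-induced member without the activating tail of FOS. It had 24.8, 20.2 and 26.6 CPM in control and 16.3, 28.4 and 15.3 CPM in mKO. Libraries mKO 1 and 3 were below all controls, while mKO 2 was above them all. Its log2 fold change was -0.26 (SE 0.25, adjusted p 0.673 by edgeR quasi-likelihood). It was -0.59 without mKO library 2, -0.13 without mKO 1 and -0.09 without mKO 3. No adjusted p was under 0.05 in any leave-out by edgeR. DESeq2 called Fosl1, as its only member, when mKO library 2 was left out. Ccdc85b overlaps Fosl1 on the other strand and stood at 25.3 to 29.4 CPM in control and 24.0 to 28.6 CPM in mKO.

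Fosl2 encodes FRA-2, the other late FOS-related protein. It had 377, 235 and 266 CPM in control and 279.8, 493 and 339 CPM in mKO. Control 1 lay above mKO 1 and mKO 3, so the groups overlapped broadly. The log2 fold change of 0.34 (SE 0.26, adjusted p 0.594 by edgeR quasi-likelihood) was 0.08 without mKO library 2, 0.21 without control library 2 and 0.57 without control library 1, so its size depended on single libraries.

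Atf3, a stress-induced factor that can pair with JUN proteins or repress as a pair with itself, had 226, 144 and 213 CPM in control and 182, 318 and 271 CPM in mKO. As for Jun, mKO 2 and 3 were above every control, and mKO 1 was below controls 1 and 3. Its log2 fold change was 0.40 (SE 0.25, adjusted p 0.542 by edgeR quasi-likelihood), and it was 0.22 without mKO library 2 and 0.23 without control library 2.

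Myc had 36.1, 35.1 and 40.5 CPM in control and 29.0, 27.1 and 28.0 CPM in mKO. Every mKO library was below every control, and the mKO pools were close together. On the log2 scale the difference was -0.41 (SE 0.10), a level 0.753 times that of control, with a 95% interval from -0.64 to -0.18. The unadjusted p was 0.0036 by edgeR quasi-likelihood, smaller than for all but 1.44% of the genes tested, and the adjusted p was 0.246. An exact two-sided permutation test gave p = 0.1, which is as low as 3 libraries against 3 can reach. DESeq2 gave an adjusted p of 0.0409. On leaving out each library in turn, that call held only without control library 2 (adjusted p 0.0131 by DESeq2); the adjusted p was 0.0623 without control 1, 0.158 without control 3, 0.0569 without mKO 1, 0.106 without mKO 2 and 0.21 without mKO 3. The estimate itself stayed between -0.45 and -0.35 when edgeR was refitted without each library.

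**Figure D2:**
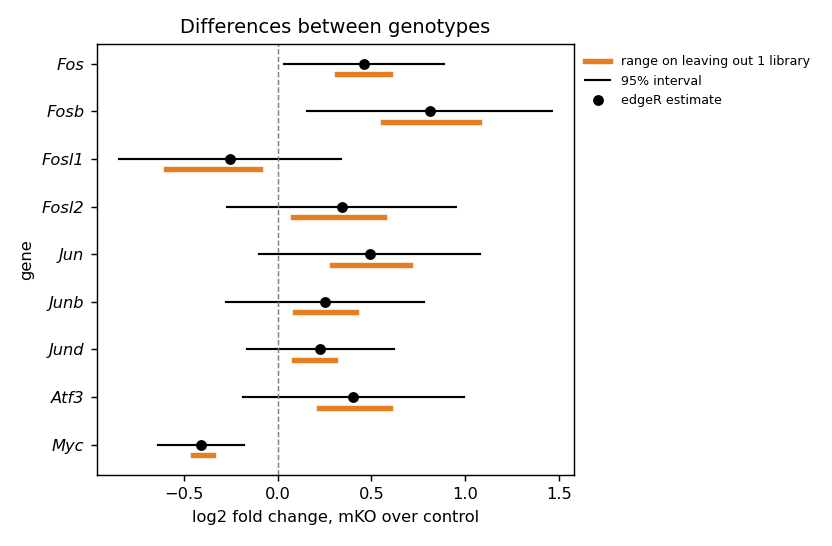
The log2 fold change of each gene, mKO over control (horizontal axis), with the edgeR estimate as a point, its 95% interval as a thin line and the range of estimates on leaving out each library in turn as an orange bar. The intervals of Fos, Fosb and Myc do not include 0 before adjustment, and the leave-out range is narrowest for Fos, Jund and Myc, with Myc between -0.45 and -0.35.

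Most of the 9 genes moved together from library to library. Library mKO 2 had the highest CPM for 7 of the 9, all but Fosb and Myc, and control library 2 had the lowest for 6 of the 9: Fos, Fosl2, Jun, Junb, Jund and Atf3. Over the 6 libraries, log2 CPM of those 6 genes gave Pearson correlations from 0.7 to 0.954 in 15 of 15 pairs, highest for Jun with Atf3. These are descriptions over 6 libraries that share their scaling, and the 6 genes were picked out after their values were seen. Myc went the other way: its correlation was below 0 with 7 of the 8 other genes, lowest with Fos at -0.787, and was above 0 with Fosl1 alone, at 0.417.

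**Figure D3:**
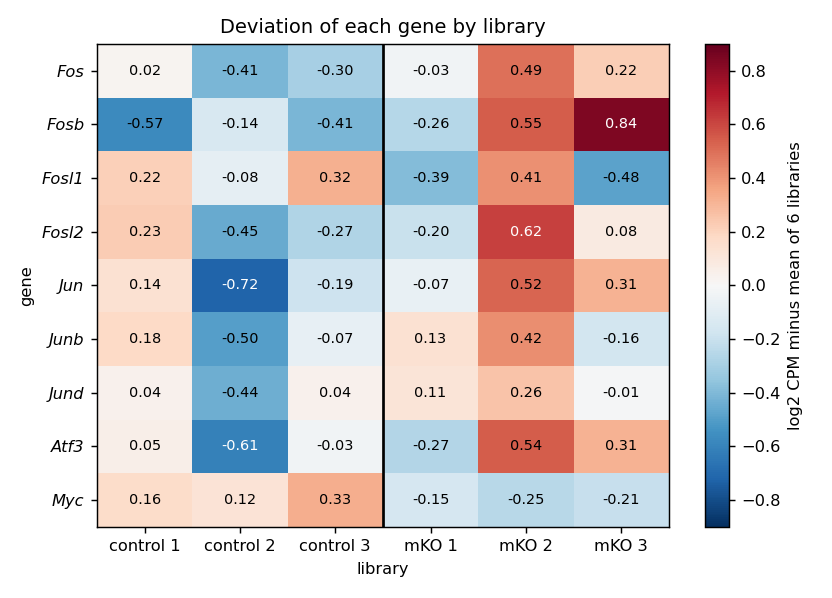
Log2 CPM of each gene (rows) in each library (columns) minus its mean over the 6 libraries, with the value printed in each cell; red is above and blue below the mean. Control 2 is blue for all genes but Myc, mKO 2 is red for all but Myc, and Myc is red in the 3 controls and blue in the 3 mKO libraries.

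The libraries at both ends also differed in scaling and in cell type markers. TMM scaling factors were highest in control 2 (1.06) and lowest in mKO 2 (0.916). Control 2 had the highest mitochondrial share of counts, 14.4% (8.56% to 11.7% elsewhere). It had the lowest haemoglobin share, 21.2% (24.4% to 27.1% elsewhere). The part of these differences in the shared pattern was not tested. Summed over 7 neutrophil markers, mKO 2 had 18065 CPM and control 2 had 9265 CPM, the highest and lowest of the 6 (9265 to 15111 CPM in control, 12965 to 18065 CPM in mKO). Over 6 monocyte and macrophage markers the same libraries had 3005 and 1510 CPM, again the extremes. Over 6 smooth muscle markers the order was turned round, with 594 CPM in mKO 2 and 2868 CPM in control 2. Of these lists, 5 of 7 neutrophil, 6 of 6 monocyte and macrophage and 0 of 6 smooth muscle markers had an estimate above 0 (all genes: 7576 of 16523). None of these markers was at 0 in any library. The groups did not overlap for the sum of 7 endothelial markers, at 833 to 959 CPM in control and 611 to 748 CPM in mKO, or for that of 4 adipocyte markers, at 629 to 761 and 339 to 508 CPM. Of all single genes tested, 9.39% were apart in this direction. Platelet markers had an estimate above 0 in 0 of 6 (median -0.43), and their sum overlapped, at 4117 to 6086 CPM in control and 3120 to 4720 CPM in mKO. Erythroid markers were above 0 in 6 of 6 (median 0.80), with sums of 145790 to 188330 CPM in control and 170620 to 199070 CPM in mKO that overlapped too. Endothelial, adipocyte, platelet and smooth muscle markers had the direction of Myc. So had sympathetic neuron markers (0 of 4 above 0, median -0.69) and most fibroblast (2 of 6 above 0) and T and NK cell markers (1 of 5). Erythroid, monocyte and macrophage and most neutrophil markers had the direction of Prdx2 and most AP-1 genes. So had skeletal muscle markers (5 of 5 above 0, median 1.83). The part of these cell types in the differences was not tested. In bulk tissue, fewer cells of a type and less RNA per cell cannot be told apart.

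Ratios of counts within a library do not depend on how libraries are scaled; the pairs were chosen after the values were seen. Fosl1 over Fosl2 was 0.0659, 0.0862 and 0.1 in control libraries 1 to 3 and 0.0583, 0.0576 and 0.0451 in mKO libraries 1 to 3. All 3 mKO libraries were below all 3 controls, including mKO 2, where both genes were at their highest (exact two-sided permutation p 0.1, the smallest possible, among 5 ratios computed; adjusted p 0.25). Myc over Jun also separated, at 0.0655 to 0.115 in control and 0.0377 to 0.0607 in mKO (exact two-sided permutation p 0.1, adjusted 0.25). The CPM of Myc alone already separated the groups, so this ratio is not a further result. As the pairs were picked on these same values, the p-values of the ratios describe them and add no support. The ratios of Fosb to Fos (0.0828 ± 0.0243 and 0.102 ± 0.0313, SD, n = 3 each), Jund to Junb (0.332 ± 0.03 and 0.328 ± 0.0364) and Atf3 to Jun (0.456 ± 0.0401 and 0.42 ± 0.0345) overlapped between the groups. With 3 libraries a group, no ratio could reach 0.05.

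**Figure D4:**
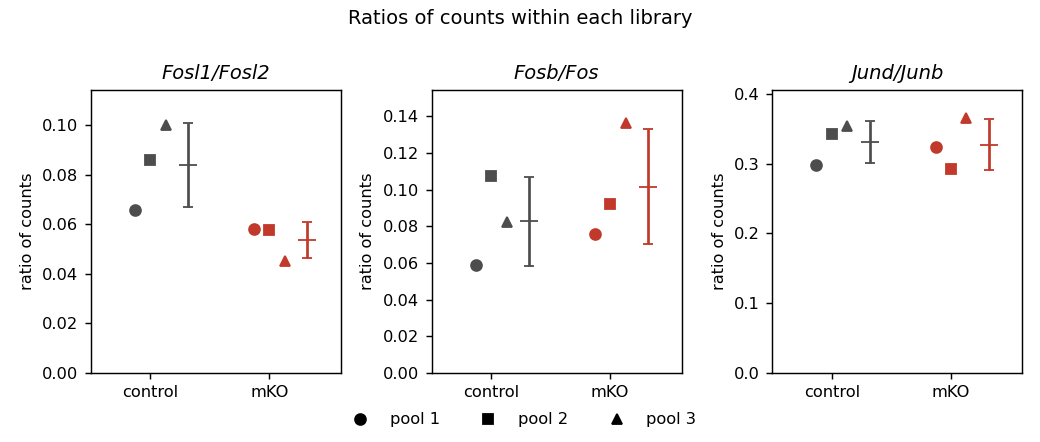
Ratio of counts of 2 genes within each library (vertical axes, starting at 0) for Fosl1 over Fosl2, Fosb over Fos and Jund over Junb; marker shape gives the pool number, and the tick with its bar gives the mean ± SD. The Fosl1 to Fosl2 ratio is 0.0659 to 0.1 in control and 0.0451 to 0.0583 in mKO, and the other ratios overlap.

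The genes around AP-1, ATF3 and MYC were grouped in 8 lists, and by edgeR quasi-likelihood no gene in any list passed an adjusted p of 0.05. Among the signal inputs, 18 MAP kinase and SRF genes had a median log2 fold change of 0.11, with 1 higher and 0 lower at an unadjusted p under 0.05 (all genes: 5.6% higher, 6.26% lower) and 0 called by DESeq2. The stress kinase gene Mapk8, for JNK1, which phosphorylates JUN, averaged 14.0 ± 0.629 CPM in controls and 14.7 ± 0.244 in mKO pools (SD, n = 3 each). Mapk14, for p38 alpha, had 59.3 ± 3.93 and 67.8 ± 7.23 CPM, with groups that did not overlap, and Srf had 34.9 ± 3.54 and 34.1 ± 1.44 CPM. In this list groups were apart for 3 higher and 0 lower genes (all genes: 8.76% and 9.39%). For Mapk14 the unadjusted p was 0.157 by edgeR quasi-likelihood. The 10 phosphatases that switch MAP kinases off had a median of 0.06 and values in both directions. Dusp1, the most abundant, had a log2 fold change of 0.20 (SE 0.24). Dusp5 had 0.57 (SE 0.17, adjusted p 0.305 by edgeR quasi-likelihood), with all mKO libraries above control. Groups were apart for 2 higher and 1 lower phosphatase genes (all genes: 8.76% and 9.39%). DESeq2 called 1 higher and 1 lower (all genes: 1.47% and 1.33%). By edgeR these 2, named after their values were seen, were Dusp6 at 0.73 (SE 0.17) and Dusp10 at -0.69 (SE 0.14).

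The other immediate early genes, 20 in all, had a median of 0.22, with 3 higher and 4 lower at an unadjusted p under 0.05 (all genes: 5.6% higher, 6.26% lower). The groups were apart for 3 higher and 5 lower genes (all genes: 8.76% and 9.39%), and DESeq2 called 2 higher and 3 lower (all genes: 1.47% and 1.33%). These 5, named after their values were seen, were the factors Egr3 (1.13 by edgeR, SE 0.17) and Nr4a1 (0.57, SE 0.14) and, lower, the matricellular genes Ccn1 (-0.69, SE 0.19) and Ccn2 (-1.07, SE 0.26) and the activity-regulated gene Arc (-0.84, SE 0.19). Egr1, a zinc finger factor induced beside Fos, averaged 124 ± 14.7 CPM in controls and 145 ± 29.7 in mKO pools (SD, n = 3 each; log2 fold change 0.22, SE 0.18). Ier2 and Ier3 had log2 fold changes of 0.19 and 0.20, and Klf2, a flow-responsive factor of endothelium, had 0.30 (SE 0.15); all of these overlapped between the groups. Klf4 had -0.10 (SE 0.12). Estimates in this list ran from -1.07 for Ccn2 to 1.13 for Egr3. All 9 members lie inside a range this wide, so it says nothing particular about Fos, Jun or Atf3.

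Among zipper proteins that pair or compete with AP-1, 15 of 18 had an estimate above 0 (all genes: 7576 of 16523). Their median of 0.20 was 0.08 without control library 2, 0.10 without mKO library 2 and 0.30 without mKO library 1. Those past an unadjusted p of 0.05 by edgeR were 3 higher and 0 lower (all genes: 5.6% and 6.26%). DESeq2 called 0 (all genes: 2.8%). Batf, a JUN partner in leukocytes, averaged 8.63 ± 1.46 CPM in controls and 9.4 ± 3.95 in mKO pools (SD, n = 3 each), and Jdp2, an AP-1 repressor, had 124 ± 31.6 and 149 ± 34.5 CPM. Maff, a small MAF protein, had a log2 fold change of 0.19 (SE 0.21), while Cebpb, a factor of inflammatory myeloid cells, had 0.22 (SE 0.19). In the stress response led by ATF4, which induces Atf3, 12 of 14 were above 0, with a median of 0.25 that was 0.06 without mKO library 2 and 0.12 without control library 2. Atf4 had 309.6 ± 33.9 and 331 ± 51.9 CPM (SD, n = 3 each), Ddit3, for CHOP, had a log2 fold change of 0.36 (SE 0.18), while Ppp1r15a, for GADD34, one of 0.39 (SE 0.20). At an unadjusted p under 0.05 by edgeR there were 0 higher and 1 lower in this list (all genes: 5.6% and 6.26%). DESeq2 called 0 of it (all genes: 2.8%).

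Genes known as AP-1 targets leaned upward, with 16 of 19 above 0 and a median of 0.24 (all genes: 7576 of 16523 and -0.03). At an unadjusted p under 0.05 by edgeR, 7 were higher and 2 lower (all genes: 5.6% and 6.26%). DESeq2 called 4 higher and 0 lower (all genes: 1.47% and 1.33%). Leaving out each library gave 13 to 16 above 0 and medians of 0.25 to 0.37. Hmox1, the haem-degrading enzyme, averaged 893 ± 83.4 CPM in controls and 1312 ± 168 in mKO pools (SD, n = 3 each), 0.55 higher on the log2 scale (SE 0.17); its adjusted p was 0.312 with edgeR and 0.015 with DESeq2. Its groups did not overlap. Plaur, the urokinase receptor, had 0.20 (SE 0.16), Timp1, the metalloproteinase inhibitor, 0.24 (SE 0.15), and the stromelysin Mmp3, whose controls varied widely, 0.24 (SE 0.39). The other DESeq2 calls, named after their values were seen, were the gelatinase Mmp9 and the cytokines Il11 and Lif, at 0.79, 1.14 and 0.86 by edgeR. The 2 lower genes past the unadjusted threshold, also named after their values were seen, were Ccnd1 (-0.42, SE 0.11) and Hbegf (-0.53, SE 0.15). For both, every mKO library was below every control. Of the 19 genes tested here, 5 lay wholly above their control range in mKO and 2 wholly below it (all genes: 8.76% and 9.39%). Many of these genes also answer to NF-kB and other factors, so the list is not a readout of AP-1 alone.

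Genes known as MYC targets had estimates below 0 in 18 of 20 (all genes: 8947 of 16523). Their median was -0.17, beside -0.03 over all genes tested. The differences were small, from -0.31 to 0.26. At an unadjusted p under 0.05 by edgeR, 4 were lower and 0 higher (all genes: 6.26% and 5.6%). Groups did not overlap for 5 lower and 1 higher (all genes: 9.39% and 8.76%). DESeq2 called 0 (all genes: 2.8%). The count below 0 was 17 or 18 of 20 on leaving out each library and 18 under the other scalings. Odc1, the rate-limiting enzyme of polyamine synthesis, averaged 442 ± 54.0 CPM in controls and 358 ± 60.6 in mKO pools (SD, n = 3 each), with a log2 fold change of -0.31 (SE 0.18). Ncl, for the nucleolar protein nucleolin, had -0.08 (SE 0.13), and Cdk4 had -0.07 (SE 0.13). Ldha, the lactate dehydrogenase that hypoxia also induces, went the other way at 0.26 (SE 0.19). Of the 4 below the unadjusted threshold, named after their values were seen, Gnl3 and Nop58 act in the nucleolus, Srm makes spermidine and Pa2g4 is a growth regulator; they ranged from -0.28 to -0.25.

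MYC's partners had a median of 0.04 over 10 tested genes. At an unadjusted p under 0.05 by edgeR, 0 were higher and 1 lower (all genes: 5.6% and 6.26%). DESeq2 called 0 (all genes: 2.8%). Max, the obligate partner, averaged 254 ± 32.4 CPM in controls and 246 ± 58.8 in mKO pools (SD, n = 3 each). Mxd1, which competes with MYC for MAX and is high in neutrophils, had 671 ± 227 and 891 ± 164 CPM (log2 fold change 0.41, SE 0.27), and Mnt, another competitor, had 0.35 (SE 0.15); both overlapped between the groups.

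**Figure D5:**
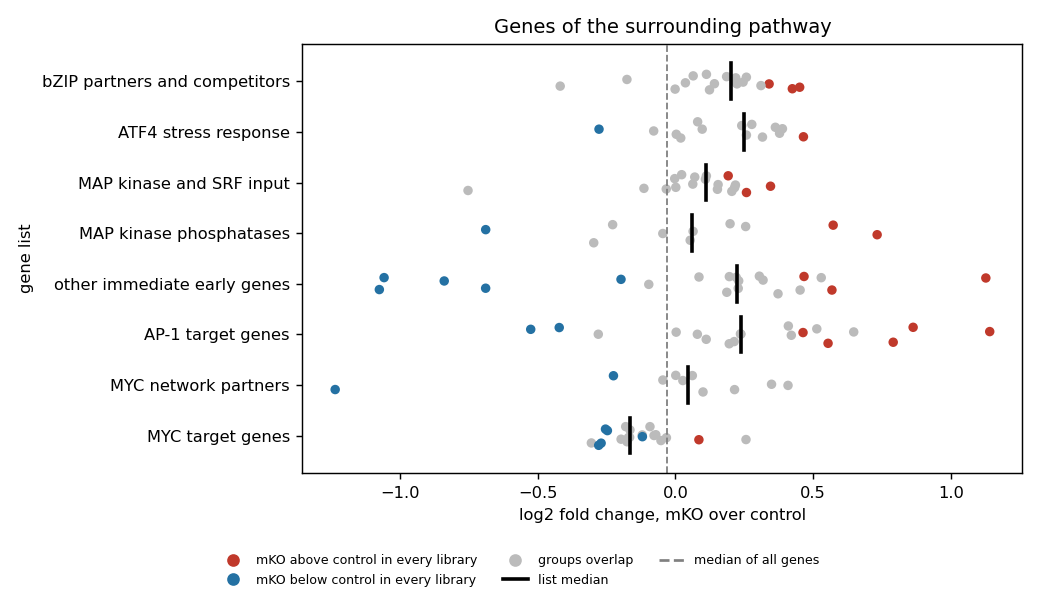
The log2 fold change, mKO over control (horizontal axis), of every tested gene in 8 lists (rows; vertical scatter within a row has no meaning); red and blue mark genes whose mKO libraries all lie above or below the controls, black bars mark list medians and the dashed line the median of all genes. MYC target genes sit in a narrow band with 18 of 20 below 0, and AP-1 target genes spread wider with 16 of 19 above 0.

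The genes most like each member were taken from 7897 other genes with a mean of at least 10 CPM, by the Pearson correlation of log2 CPM over the 6 libraries. With 6 points many genes reach high values: 354 genes were above 0.95 with Fos and 385 with Jun, but only 11 each with Fosl1 and Myc and 17 with Fosb. The closest were Cacul1 and Blcap for Fos, Sh3bp2 and Marchf7 for Jun, Calcoco1 and Kif3b for Junb, Borcs6 and Igsf6 for Jund, Erf and Sec16a for Fosl2, and Sde2 and Arih2 for Atf3. Those closest to Fosb were Zeb2 (0.987) and Trps1 (0.982), to Fosl1 were Dapp1 (0.997) and Stam (0.991), and to Myc were Lsr (0.985) and Ltv1 (0.979).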

How the data were processed

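The authors deposited whole-number, unscaled read counts per gene. Per the submitters' processing notes, which state no role or order, featureCounts 2.0.1, HISAT2 2.1.0, Trim Galore 0.4.0, FastQC 0.11.8 and the build GRCm39 were used; strand setting and handling of shared reads were not given in the sources used here. Counts were fitted with edgeR 4.0.16 (quasi-likelihood, robust, TMM scaling, default filter) in R 4.3.3 over 16523 of 16533 genes, with Benjamini-Hochberg adjustment over all of them and a threshold of 0.05; CPM uses TMM-scaled totals. Alternatives were DESeq2 1.42.0, limma 3.58.1 (voom), other scalings and filters, a replicate block and leaving out each library. In simulated data for this comparison (16523 genes, 200 changed), edgeR recovered 48% of 2-fold and 88% of 4-fold changes, and DESeq2 75% and 93%; 13 of 149 calls by edgeR and 75 of 243 by DESeq2 fell on unchanged genes. No pair of replicate libraries agreed within sampling noise. Exonic lengths came from GENCODE release M21 (GRCm38), and promoter sequences from RefSeq (GRCm38.p6). The members, the gene lists and the genes named were chosen with earlier results of these data known. Named were the 9 members, any list gene past the edgeR threshold (there was none), a fixed set of list genes, and the 2 most similar genes of each member; further list genes called by DESeq2, or past an unadjusted p, are marked where named. Intervals use the F-test's standard error.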

Additional observations from a re-analysis of the deposited data

How the results depend on the processing

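No member passed 0.05 in 14 of the 15 alternatives; the exception was Myc by DESeq2, at -0.39 with an adjusted p of 0.0409, so DESeq2 counted 1 member. Over all genes, DESeq2 called 462, edgeR called 0 in the full data, and leaving out single libraries gave 0 to 7 calls by edgeR (0 members each time). DESeq2 without single libraries, added after seeing the data, called from 243 genes (without control library 2) to 764 (without control library 1), and Myc only without control library 2 (-0.44), and otherwise Fos, Fosb or Fosl1 singly, or no member. Every member kept its direction in all 15. The replicate block called 0 genes and 0 members and gave Myc -0.41 with an adjusted p of 0.578 by edgeR. Deviations from the group mean correlated at -0.136, -0.152 and -0.267 for same-numbered libraries, and at -0.0873 to 0.238 for other pairs. With 3 pools per group, such values cannot show whether same-numbered pools were handled together. With 3 pools per group, edgeR recovered 48% of the 2-fold changes simulated; smaller ones were not simulated.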
